A study of Mus musculus with 4 samples.

Results

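The genes described here are 43 genes of the extracellular matrix, of the basement membrane and of proteins that act on or beside them. They were chosen by gene symbol from a fixed list, and 42 of the 43 had a named spot on the arrays, out of 14386 genes with a named spot in all. The exception was Fbn1, which encodes fibrillin-1. It has no ratio here and enters only the count of promoter motifs. The 42 genes were represented by 98 spots, 2 or more each, and 6 of them by more than 1 clone or transcript sequence. For description they were split into 4 role groups: 8 interstitial collagens of the fibrillar and type VI families, 9 basement membrane components, 18 secreted matrix proteins and matrix regulators, and 8 cell-associated proteins.

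The cells were CGR8, a mouse embryonic stem cell line, with no genetic change or added agent named in the labels. Undifferentiated cells, which the labels count as embryoid bodies of day 0, gave the day 0 RNA, and embryoid bodies grown in hanging drops gave the RNA of day 3 and of day 10. Each of the 4 arrays carried total RNA of 1 of these later days and of day 0 in its 2 channels, with 2 arrays per day, of which the second is a technical repeat. Each day is therefore 1 pair of RNA samples, the SD given with a mean is that of 2 technical arrays, and no significance test was possible.

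Values are log2 ratios of the channels, set to 0 at the median of each array and averaged over the spots of a gene. Neither the dyes nor the numerator of the ratio could be taken from the labels, so a value is placed on the positive or the negative side and no day is called higher. As a point of reference, Dppa5a, a gene restricted to stem and early embryonic cells, had -2.73 and -2.68 on the day 3 arrays, and all 11 measured pluripotency markers had negative means at day 3. At day 10 Dppa5a had 0.44 and -2.83, and 4 of 10 measured pluripotency markers had positive means, with list medians of 0.25 on the first and -0.56 on the second array. Fgf4 was past 2-fold on the positive side at 1.28 ± 0.38, while Pou5f1 and Zfp42 were negative on both day 10 arrays. A ratio gives no level, and in embryoid bodies, which are mixtures of cell types, fewer cells of a type and less RNA per cell cannot be told apart.

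The extracellular matrix is the protein meshwork between cells. Fibrillar collagens give tensile strength, while the basement membrane is a thin sheet built from laminin and type IV collagen networks that nidogens and the proteoglycan perlecan tie together. In embryoid bodies a basement membrane forms between the outer primitive endoderm and the inner cells, and matrix production is a known property of primitive endoderm and of mesenchyme.

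One matrix gene, Timp1, lay at or beyond 2-fold on both arrays at day 3, and none did at day 10. These are 1 of 40 genes measured on both day 3 arrays and 0 of 36 at day 10, against 2.80% of all 13707 genes at day 3 and 3.65% of 13199 at day 10. The matrix share is thus near or below the background. The median of the matrix genes was -0.01 at day 3, where that of all genes was 0.01, and 0.11 at day 10, where that of all genes was again 0.01. The middle 50% of the matrix genes ran from -0.40 to 0.33 at day 3 and from -0.21 to 0.57 at day 10. Both arrays were on the same side for 21 of the 40 genes at day 3 and for 18 of the 36 at day 10, compared with 64.6% and 60.8% of all genes.

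**Figure D1:**
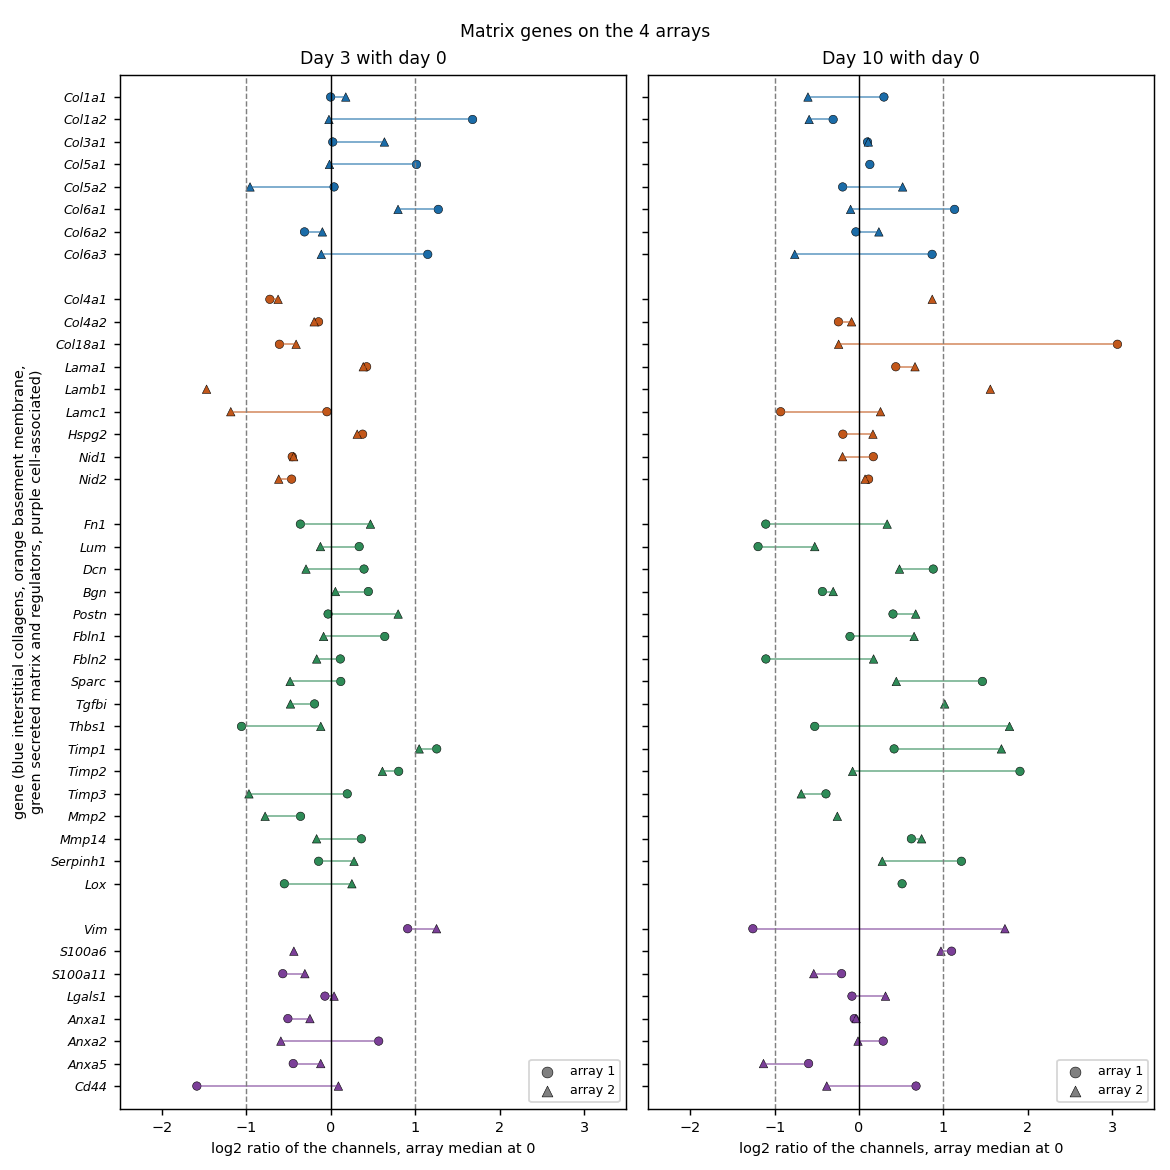
Log2 ratio of every matrix gene with a named spot on the 2 day 3 arrays (left) and the 2 day 10 arrays (right). Circles are the first array and triangles the technical repeat, a line joins the arrays of a gene, colours mark the role group, and dashed lines mark 2-fold. Timp1 at day 3 is the gene with both points past a dashed line on the same side.

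Among the interstitial collagens, 6 of 8 genes had positive means at day 3. Both arrays were on the same side for 3 of the 8, Col3a1 and Col6a1 on the positive and Col6a2 on the negative side. Col6a1, which encodes a chain of the beaded-filament collagen VI, had 1.27 and 0.80 on the day 3 arrays, a mean of 1.03 ± 0.34. At day 10 it had 1.13 and -0.10, a mean of 0.52 ± 0.87. Both day 3 arrays were on the positive side while those of day 10 parted. The first day 3 array had 1 spot of Col6a1, and on the second its spots read 0.35 and 1.24. On the first day 10 array the 2 spots of Col6a1 read -2.10 and 4.36. Col1a2, the second chain of type I collagen, had 1.68 and -0.02 at day 3 and -0.31 and -0.59 at day 10. Its partner chain Col1a1 had -0.00 and 0.18 at day 3 and 0.29 and -0.61 at day 10. Neither chain of type I collagen kept apart from 0 by more than the array difference at day 3, and at day 10 the mean of Col1a2 was -0.45 ± 0.20.

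Col6a3, another collagen VI chain, was spotted with 3 different sequences. Their day 3 means were -0.21, 0.58 and 1.23, so the sequences did not give 1 value, and the gene mean was 0.52 ± 0.89. Its gene values were 1.15 and -0.11 at day 3 and 0.87 and -0.76 at day 10, positive on the first and negative on the second array of each day. Col6a2, the third collagen VI chain here, was bright and lay near 0, with -0.31 and -0.10 at day 3 and -0.04 and 0.23 at day 10. Col3a1, type III collagen, had 0.02 and 0.63 at day 3 and 0.10 and 0.11 at day 10. The type V collagen genes, which encode chains that regulate fibril width, showed no common side: Col5a2 had 0.04 and -0.96 at day 3, with -0.19 and 0.52 at day 10. Col5a1 had 1.01 and -0.02 at day 3, and a value on 1 of the day 10 arrays, 0.13. The group median was 0.41 at day 3, but -0.02 on the second array alone, and 0.10 at day 10.

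By gene means, the basement membrane genes were the most even group between the day 3 arrays. All 8 genes measured on both arrays had the same side on both, 6 negative and 2 positive, beside 64.6% of all genes. Of the other laminins and basement membrane genes described below, 9 of 15 did so. The median array SD of the 8 genes was 0.06, against 0.38 for those other genes and 0.28 for all genes. These gene means hid spots far apart on the first array, -2.36 and 0.91 for Col4a1 and -3.06 and 3.30 for Lama1. The array SD of Lamc1 was 0.81. The median of the group was -0.48, with array medians of -0.30 and -0.43. At day 10, 3 of 7 kept 1 side over both arrays, beside 60.8% of all genes. The day 10 median of -0.01 had no settled side, since it was 0.16 without the first array, 0.11 without the second and 0.07 with the brightness trend removed.

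Nid1 and Nid2 encode the nidogens, which link laminin to type IV collagen. Nid1 had -0.46 and -0.44 on the day 3 arrays, and its 4 spot readings ran from -0.48 to -0.41. Nid2 had -0.47 and -0.62, with spot readings between -0.65 and -0.39. Both nidogen genes thus lay on the negative side in every reading of day 3, by less than 2-fold, with means of -0.45 ± 0.01 and -0.54 ± 0.11. At day 10 Nid1 had 0.17 and -0.20 and Nid2 0.11 and 0.07. Neither nidogen gene was on the negative side on both day 10 arrays. Nid1 lies on chromosome 13 from 13437602 to 13512275 and Nid2 on chromosome 14 from 19751257 to 19811787 (GRCm38.p6), so they are not neighbours.

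Col4a1 and Col4a2 encode the chains of the main type IV collagen and are a head-to-head pair on chromosome 8, read from opposite strands. In RefSeq (GRCm38.p6) their start sites are 21 bases apart, and the 300-base windows around them overlap by 78 bases. Col4a1 had -0.72 and -0.63 at day 3, a mean of -0.67 ± 0.07, although its 2 spots on the first array read -2.36 and 0.91. Col4a2 had -0.15 and -0.20 at day 3, a mean of -0.17 ± 0.04. At day 3 both chains were on the negative side on both arrays. At day 10 Col4a1 had a value on 1 array, 0.87, and Col4a2 had -0.24 and -0.09. By gene means the pair was on opposite sides in the single day 10 array that measured both. The 2 spots of Col4a2 on that array read 0.50 and -0.68, so its side there was not settled.

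The laminin genes Lama1, Lamb1 and Lamc1 encode the alpha, beta and gamma chains of laminin-111, the first laminin of the mouse embryo. They did not lie on 1 side. Lama1 had 0.42 and 0.38 at day 3 and 0.44 and 0.66 at day 10, positive on all 4 arrays, with means of 0.40 ± 0.03 and 0.55 ± 0.16. Its close array values at day 3 hide spots far apart, since 2 spots of 1 sequence read -3.06 and 3.30 on the first array. Lamc1 had -0.05 and -1.19 at day 3 and -0.93 and 0.25 at day 10. Lamb1 had a value on 1 array of each day, -1.47 at day 3 and 1.56 at day 10, and was among the dimmest genes with a brightness percentile of 2.08. At day 3 the alpha chain was thus positive and the other chains negative where measured, and Lamc1 was close to 0 on the first array.

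Hspg2, which encodes perlecan, had 0.38 and 0.31 at day 3 and -0.19 and 0.16 at day 10. Col18a1, the source of the fragment endostatin, had -0.61 and -0.41 at day 3, a mean of -0.51 ± 0.14. Its day 10 arrays read 3.06 and -0.24, and on the first of them 1 of its 2 spots had a value. The day 10 mean of Col18a1, 1.41 ± 2.34, was the highest of the matrix genes, and its positive side comes from that single spot.

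Timp1 encodes a secreted inhibitor of matrix metalloproteinases. It had 1.25 and 1.05 on the day 3 arrays, a mean of 1.15 ± 0.15, and its 3 spot readings that day were 1.25, 1.11 and 0.99. The first array had 1 of its 2 spots. At day 10 it had 0.42 and 1.69, a mean of 1.05 ± 0.90. Timp1 was on the positive side on all 4 arrays, past 2-fold on 3 of them. Timp2, a related inhibitor, had 0.80 and 0.61 at day 3 and 1.91 and -0.08 at day 10, with a brightness percentile of 2.59. Timp3, which stays bound to the matrix, had 0.19 and -0.97 at day 3 and -0.39 and -0.68 at day 10. The 3 inhibitors did not lie on 1 side: Timp1 and Timp2 had positive means at both days and Timp3 negative means at both. The Timp2 mean at day 10, 0.915 ± 1.40, and the Timp3 mean at day 3, -0.39 ± 0.82, were within their array SD.

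The metalloproteinase genes Mmp14 and Mmp2 differed as well. Mmp14, the membrane-bound metalloproteinase that activates Mmp2, had 0.36 and -0.17 at day 3. At day 10 it had 0.62 and 0.74, a mean of 0.68 ± 0.09, and its 4 spot readings lay between 0.58 and 0.90. Mmp14 was thus positive in every day 10 reading and on both sides of 0 at day 3. Mmp2, the gelatinase that cuts type IV collagen, had -0.36 and -0.78 at day 3 and a value on 1 day 10 array, -0.26.

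The 250 bases before the start sites of Timp1, Nid1 and Mmp14 are shown because these are the gene past the 2-fold limit and 2 of the genes with the closest readings of a day. They come from RefSeq (GRCm38.p6), which held such an entry for 31 of the 43 genes, at chrX:20869916-20870165, chr13:13437352-13437601 and chr14:54431348-54431597, all on the plus strand. Capitals mark the GC box GGGCGG, the core of Sp1 binding sites, on either strand.
Timp1: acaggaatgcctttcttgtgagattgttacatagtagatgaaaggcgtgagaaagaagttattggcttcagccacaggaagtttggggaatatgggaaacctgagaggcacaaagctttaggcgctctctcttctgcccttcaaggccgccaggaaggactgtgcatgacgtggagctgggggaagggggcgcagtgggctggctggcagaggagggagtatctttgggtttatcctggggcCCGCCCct
Nid1: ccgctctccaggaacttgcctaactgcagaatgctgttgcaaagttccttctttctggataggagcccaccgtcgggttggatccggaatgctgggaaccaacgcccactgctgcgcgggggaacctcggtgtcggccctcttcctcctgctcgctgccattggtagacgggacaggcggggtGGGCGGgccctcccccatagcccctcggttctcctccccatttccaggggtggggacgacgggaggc
Mmp14: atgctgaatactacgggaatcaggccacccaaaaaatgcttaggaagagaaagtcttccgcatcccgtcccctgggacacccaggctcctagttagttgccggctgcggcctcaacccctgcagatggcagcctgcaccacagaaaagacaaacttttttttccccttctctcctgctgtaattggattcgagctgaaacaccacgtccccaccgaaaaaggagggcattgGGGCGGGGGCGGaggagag
The GC box occurs 1 time in Timp1 and in Nid1 and 2 times in Mmp14. It was found in 19 of the 31 matrix promoters, 61.3%, that of Fbn1 included, and in 32.9% of 27025 promoters, with 1 entry taken per gene. The AP-1 motif TGANTCA was in 3 of the 31 and in 6.87% of all, and the TATA motif TATAAA in 4 of the 31 and in 3504 of the 27025. Searched on both strands, neither of these motifs was in the 3 windows shown. The 27025 promoters were not limited to genes on the arrays or matched for base content. The shares of the GC box and of the other motifs are therefore not compared like for like. Matches of letters describe the windows and do not show binding.

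The secreted matrix proteins had 9 of 14 positive means at day 10 and a median of 0.58, the highest of the 4 groups, with array medians of 0.15 and 0.39. At day 3 their median was 0.05, with array medians of 0.12 and -0.12. Sparc, a collagen-binding glycoprotein abundant in parietal endoderm of the mouse, had 0.12 and -0.48 at day 3 and 1.46 and 0.44 at day 10. One of its spots was close between the day 10 arrays, with a mean of 1.01, and the other was not, at 1.92 and -0.14. Its day 10 mean was 0.95 ± 0.72, short of the limit on the second array. Thbs1, thrombospondin-1, had -1.06 and -0.12 at day 3 and -0.53 and 1.78 at day 10, so the day 10 arrays were on opposite sides.

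Serpinh1 encodes Hsp47, the chaperone that collagen needs in the endoplasmic reticulum, and was spotted with 2 sequences. The first had 0.08 and 0.31 at day 3 and 0.55 and 0.42 at day 10. The second had -0.59 and 0.24 at day 3 and 1.88 and 0.13 at day 10, where 1 spot on the first array read 4.23. The gene means of 0.06 ± 0.30 and 0.74 ± 0.66 thus carry the spread of the second sequence. Fn1, fibronectin, was also spotted with 2 sequences and had -0.36 and 0.47 at day 3 and -1.11 and 0.33 at day 10. Lox, the enzyme that crosslinks collagen, had -0.55 and 0.25 at day 3 and 0.51 on 1 day 10 array.

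The small leucine-rich proteoglycans, which bind collagen fibrils, did not share a side. Lum had 0.34 and -0.12 at day 3 and -1.20 and -0.53 at day 10, with a day 10 mean of -0.86 ± 0.48. Dcn had 0.39 and -0.29 at day 3 and 0.88 and 0.48 at day 10. Bgn, a bright gene with a brightness percentile of 88.4, had 0.44 and 0.05 at day 3 and -0.43 and -0.31 at day 10. The gene means of decorin and lumican were on opposite sides on both day 10 arrays, with biglycan on the side of lumican. On the second array these means average spots that disagreed, 1.23 and -2.28 for Lum and -0.30 and 1.26 for Dcn. The remaining secreted proteins were Postn with day 3 and day 10 means of 0.38 ± 0.59 and 0.54 ± 0.19, Fbln1 with 0.28 ± 0.51 and 0.27 ± 0.54, and Fbln2 with -0.03 ± 0.20 and -0.47 ± 0.90. Tgfbi had a mean of -0.34 ± 0.20 at day 3 and a single day 10 value of 1.01. Of these periostin, fibulin and Tgfbi means, Postn at day 10 and Tgfbi at day 3 were farther from 0 than their array SD. For Postn that SD hides 2 spots at -1.44 and 2.24 on the first day 10 array, and the second array had 1 spot.

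Among the cell-associated proteins, Vim encodes vimentin, the intermediate filament of mesenchymal cells. It had 0.91 and 1.25 at day 3, a mean of 1.08 ± 0.24, with 1 array just short of the limit. At day 10 it had -1.26 and 1.73, past 2-fold on opposite sides. The -1.26 averages spots at -2.44 and -0.08, and the second day 3 array had 1 of its 2 spots. Vim was the only matrix gene past 2-fold on opposite sides, 1 of 36 at day 10 and 0 of 40 at day 3. Of all genes, 102 of 13707 were so at day 3 and 198 of 13199 at day 10. S100a6, a calcium-binding protein gene, had 1.10 and 0.97 at day 10, a mean of 1.03 ± 0.09, with spot readings from 0.70 to 1.49. Its second array fell just short of the limit, and at day 3 it had a single value of -0.44. These are the values nearest the limit from the outside, Vim at day 3 and S100a6 at day 10.

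The annexins bind membrane phospholipids in the presence of calcium. Anxa1, the brightest matrix gene at percentile 98.9, had -0.51 and -0.25 at day 3 and -0.06 and -0.04 at day 10. Anxa5 had -0.45 and -0.12 at day 3 and -0.60 and -1.13 at day 10, with a day 10 mean of -0.87 ± 0.38. Its gene means were negative on all 4 arrays, but the last averages spots on opposite sides, at 0.11 and -2.37. Anxa2 had 0.57 and -0.59 at day 3 and 0.29 and -0.01 at day 10. By gene means, Anxa1 and Anxa5 shared a side at both days, and Anxa2 split at day 3. S100a11, another calcium-binding protein gene, was bright as well and had -0.57 and -0.31 at day 3 and -0.21 and -0.54 at day 10. Its gene means were negative on all 4 arrays, with spots of 0.13 and -0.55 on the first day 10 array. Lgals1, galectin-1, stayed near 0 with -0.07 and 0.04 at day 3 and -0.08 and 0.31 at day 10. Cd44, the hyaluronan receptor, had -1.59 and 0.09 at day 3, where the first of its 2 sequences read -2.34 on the first array and the other -0.09.

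**Figure D2:**
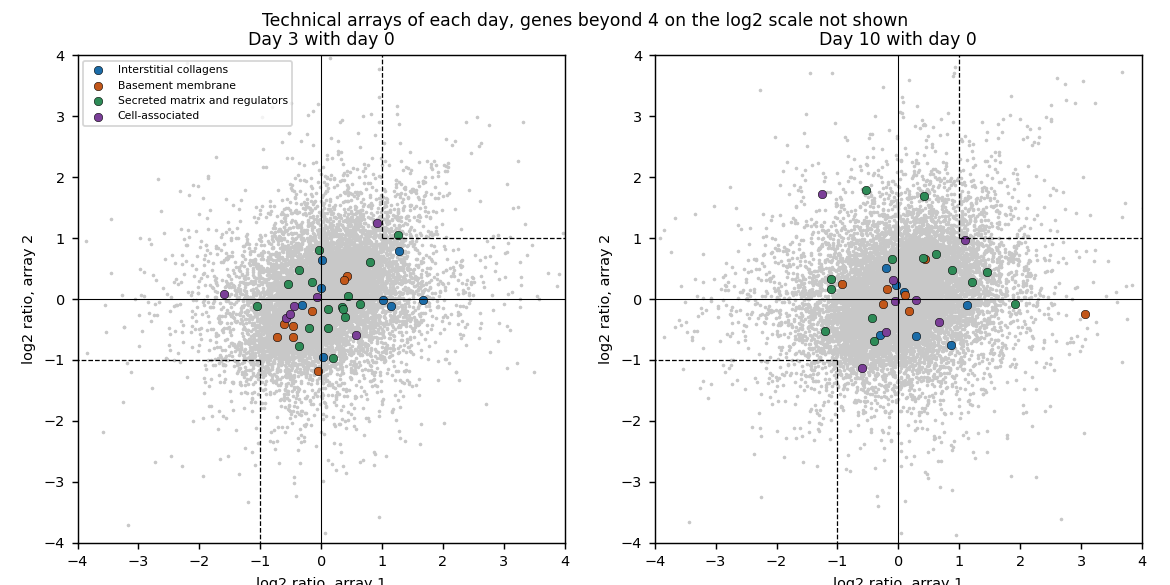
Log2 ratio on the second array against the first for day 3 (left) and day 10 (right), with all genes in grey and the matrix genes in colour by role group. Dashed corners enclose genes beyond 2-fold on both arrays on the same side, where Timp1 lies at day 3 and no matrix gene at day 10.

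Each gene was spotted at least 2 times per array, which gives a finer look than the gene means. Among genes with 4 spot readings in a day, every reading lay on 1 side for 9 of 25 matrix genes at day 3, or 36.0%, against 40.3% of all 9222 such genes. At day 10 this held for 2 of 19, or 10.5%, against 35.5% of all 7615. The matrix genes were therefore not above the background in this measure, which was chosen after the data were examined. The 9 genes at day 3 were Nid1, Nid2, Col18a1, Lamc1, Col6a2, S100a11, Anxa1 and Anxa5 on the negative side and Bgn on the positive side. The 2 at day 10 were Mmp14 and S100a6, both on the positive side. The nidogens had the narrowest readings of the 9, with an SD over 4 readings of 0.03 for Nid1 and 0.11 for Nid2, while Lamc1 ranged from -1.95 to -0.04.

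**Figure D3:**
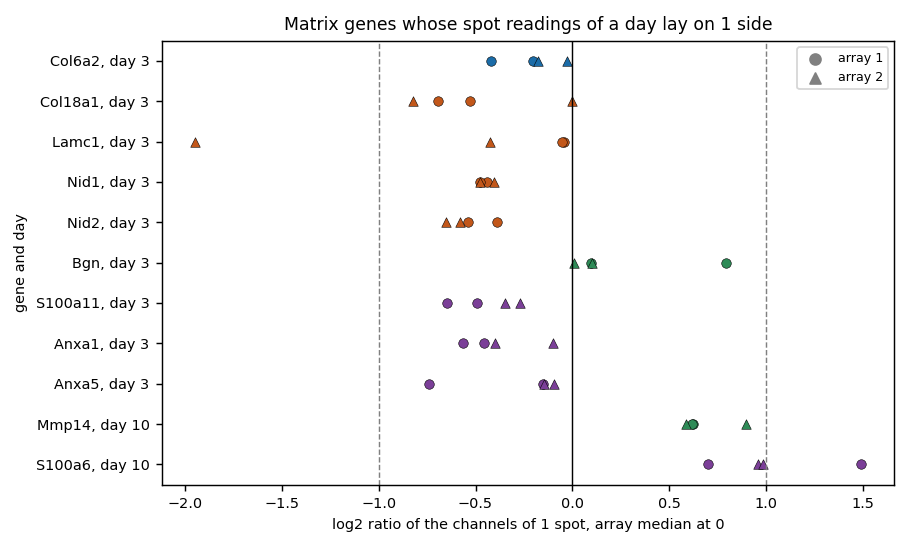
Log2 ratio of each spot reading for the matrix genes whose 4 readings of a day all lay on 1 side of 0. Circles and triangles are the 2 technical arrays and dashed lines mark 2-fold; the readings of Nid1 at day 3 lie between -0.48 and -0.41.

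The spread between the arrays was smaller for brighter genes, where brightness is a measure recovered from the deposited ratios themselves. Across all genes at day 3, the median array SD was 0.51 in the dimmest 25% and 0.14 in the brightest 25%, and at day 10 0.57 and 0.19. The matrix genes covered the whole range with a median percentile of 51.4, 8 of the 42 in the brightest 25% and 10 in the dimmest. The 8 bright genes were Anxa1, Nid1, S100a11, Col6a2, Bgn, Lgals1, Col3a1 and Col4a2. Their means lay between -0.45 and 0.33 at day 3 and between -0.37 and 0.11 at day 10, so no bright matrix gene came near 2-fold. Timp1 and S100a6 were at percentiles 45.6 and 18.5. Brightness also moved with the ratio itself: all genes of the dimmest 25% had medians of 0.20 (day 3) and 0.31 (day 10), and those of the brightest 25% were negative, -0.04 and -0.15. The part of this trend in the values of dim matrix genes was not tested. Timp1 stayed past the limit at day 3 with the trend removed.

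**Figure D4:**
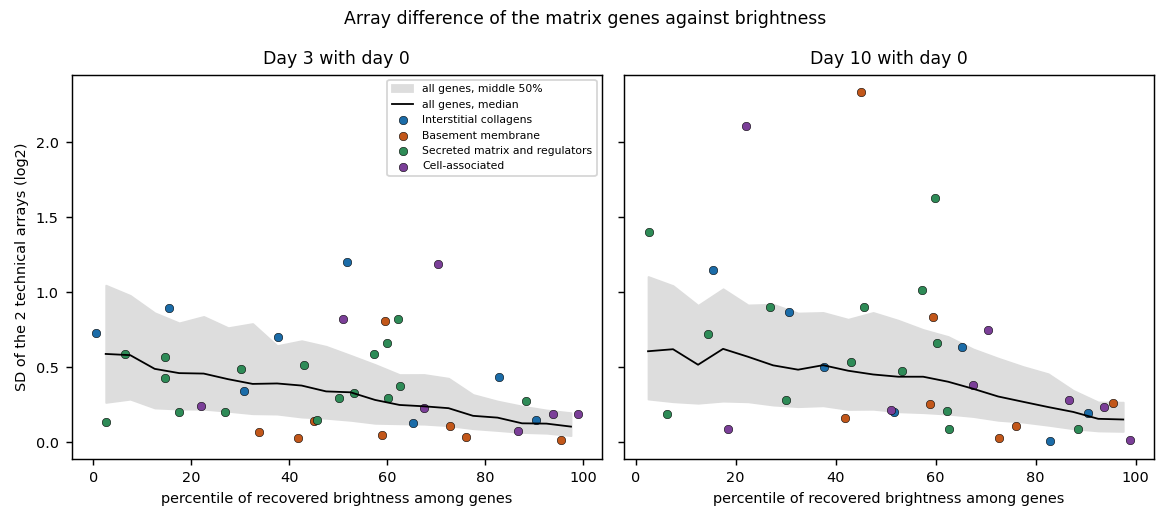
SD of the 2 technical arrays against the percentile of recovered brightness, for day 3 (left) and day 10 (right). The line and band are the median and middle 50% of all genes, and points are matrix genes, 8 of which lie in the brightest 25%.

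Day 10 was set against day 3 through the day 0 RNA that both share. This step, like the means of a day, assumes that the ratio has the same orientation on all 4 arrays, which the labels do not give. None of the 35 matrix genes with values on all 4 arrays differed by 2-fold or more in every pair of arrays, against 3.56% of 12654 genes. Their median difference, day 10 minus day 3, was 0.13 and that of all genes 0.00. Col18a1 had the highest difference, 1.92 ± 2.34, and Col1a2 the lowest, -1.28 ± 1.22, each with an SD about as large as the difference or larger. Other differences lay beyond their SD, among them those of Sparc at 1.13 ± 0.84 and Lum at -0.97 ± 0.58. Smaller ones included Nid2 at 0.63 ± 0.11, Nid1 at 0.44 ± 0.26, Bgn at -0.62 ± 0.29 and Mmp14 at 0.58 ± 0.38. By role group the median difference was -0.24 for interstitial collagens, 0.28 for basement membrane genes, 0.08 for secreted proteins and 0.13 for cell-associated proteins. Single arrays moved these medians: that of the collagens was -0.69 without the first and 0.13 without the second day 10 array, and that of the basement membrane genes was 0.03 without the second.

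The 7 lists of related genes, chosen with earlier results of these data known, show how the wider matrix repertoire lay on the same arrays. Their counts stand beside 2.80% of all genes past 2-fold at day 3, 3.65% at day 10 and 3.56% between the days. Of the other collagens, 0 of 25 were beyond 2-fold at day 3 and 1 of 22 at day 10, Col4a3 at 1.35 ± 0.49, a type IV collagen chain of specialised basement membranes. Other laminins and basement membrane genes had 0 of 15 at each day. Their median was -0.18 at day 3, the same side as the main basement membrane genes at -0.48. Of the other matrix glycoproteins and proteoglycans, 2 of 38 were positive beyond 2-fold at day 3 and 2 of 35 negative at day 10. These were Fmod, the collagen-binding proteoglycan fibromodulin, at 2.05 ± 0.22, and Acan, the cartilage proteoglycan aggrecan, at 1.28 ± 0.09. At day 10 they were Ltbp2, a latent TGF-beta binding protein, at -1.31 ± 0.13 and Thbs4 at -1.02 ± 0.01. Between the days 3 of 34 genes of this list passed, all on the negative side. Fmod differed by -2.24 ± 0.23, Ltbp2 by -1.78 ± 0.18 and Acan by -1.75 ± 0.49. These differences were larger than that of any matrix gene of the main list on the negative side. On the positive side, 2 of 22 other collagens passed between the days, Col16a1 at 1.88 ± 0.29 and Col4a3 at 1.66 ± 0.50. Of integrins and other matrix receptors 1 of 27 passed, Itga3 at 1.51 ± 0.20.

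Collagen processing enzymes had 2 of 19 beyond the limit at day 3 and 1 of 18 at day 10, all on the positive side. Loxl2, a lysyl oxidase relative that crosslinks collagen IV, was the one gene of this list past it at both days, with 1.23 ± 0.05 and 1.61 ± 0.09. P4ha1, the collagen prolyl hydroxylase subunit, had 2.21 ± 1.36 at day 3. Loxl2 was dim, with a brightness percentile of 14.4. Of matrix proteases and their inhibitors, none of 30 passed at day 3 and 2 of 27 at day 10, Adam12 at 1.83 ± 0.64 and Mmp10 at 1.46 ± 0.25. Of integrins and other matrix receptors, none of 29 passed at day 3 and 2 of 28 at day 10, Itga3 at 1.03 ± 0.04 and the collagen receptor gene Ddr1 at -1.09 ± 0.06. None of 27 other annexin, S100 and galectin genes passed at day 3 and none of 24 at day 10. At each day no more than 2 genes of any of these 7 lists were past the limit, so list shares rest on very few genes.

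**Figure D5:**
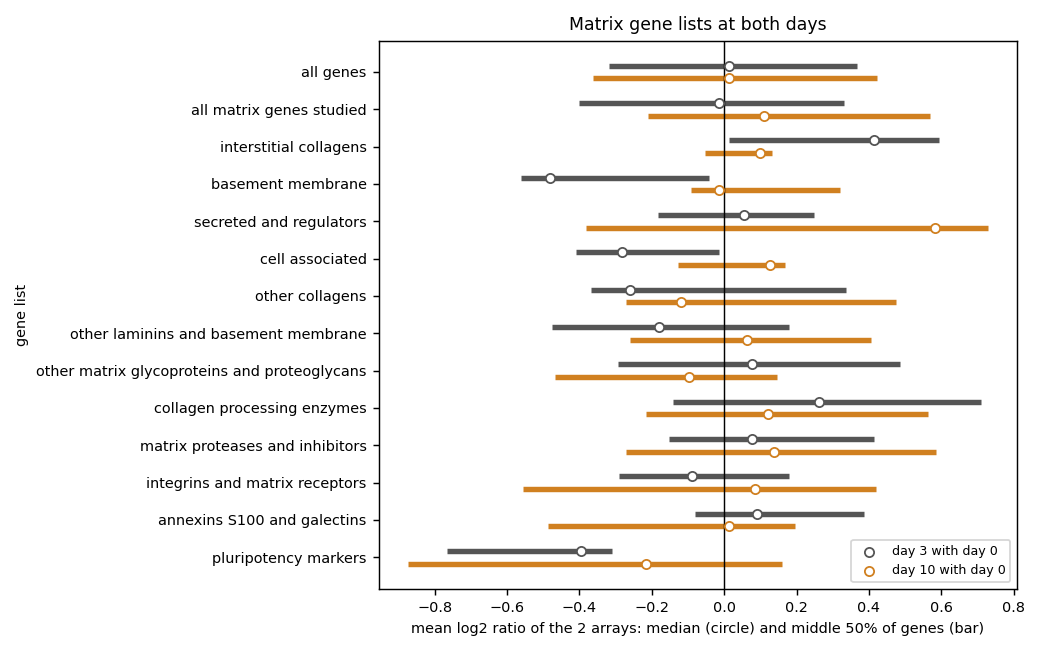
Median (circle) and middle 50% (bar) of the mean log2 ratio over the genes of each list, at day 3 (grey) and day 10 (orange). Basement membrane genes sit at -0.48 at day 3 and -0.01 at day 10, and interstitial collagens at 0.41 and 0.10.

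Markers of cell types that make matrix were read on the same arrays, and their part in the matrix values was not tested. None of 15 primitive endoderm markers passed 2-fold at day 3 and none of 13 at day 10, with medians of -0.09 and 0.28. Of the 13 at day 10, 5 had negative means. Gata4, a transcription factor of that lineage, had -0.51 and -0.54 at day 3 and 0.04 and 1.73 at day 10. Afp, of the same list, had -0.01 and -0.30 at day 3 and -1.32 and -0.15 at day 10. Fibroblast and mesenchyme markers had 0 of 8 past the limit at each day, with Pdgfra, a receptor listed with the primitive endoderm markers and also used for mesenchyme, at -0.12 ± 0.24 and -0.17 ± 0.57. Endothelial markers had 2 of 10 past it at day 3 and 3 of 10 at day 10, beside 2.80% and 3.65% of all genes, Egfl7 among both, at 2.77 ± 0.31 and 1.59 ± 0.75. The medians of the endothelial list were 0.18 and 0.12, and 4 of the 10 means were negative at each day. Tie1, past the limit at day 3 at 1.73 ± 0.37, differed by -1.97 ± 0.37 between the days. Macrophage markers had 0 of 7 and 0 of 6.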

How the data were processed

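Total RNA of CGR8 cells was measured on 4 spotted arrays with 2 channels. The deposited table gives 1 log2 ratio per spot and array. How the authors scanned, background-corrected and dye-normalised the arrays, and why some spots are empty, was not stated in the labels. The log2 base was read from the values: on the 4 arrays taken as powers of 2, between 6.38% and 7.94% of 5000 values came within 5e-05 of a whole number after multiplying by some integer up to 100, and at most 0.920% did in base e or 10. Values were present for 40348 and 41386 of 46128 spots on the day 3 arrays and for 37471 and 39955 on the day 10 arrays, and the matrix genes lost between 7.14% and 20.4% of their spots per array. The number of arrays limits the precision.

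Spots were named through a probe table from the platform's annotation, with 32544 spots carrying 1 symbol, 588 several and 12996 none. Looking up symbols by Entrez ID in the RefSeq table of GRCm38.p6 changed 0 of them. Control sequences (480 spots, each spotted 96 times and absent from that table) were left out. Each array was set to a median of 0 over its 32064 named spots, and spots were averaged per gene. A gene counted as beyond 2-fold where both arrays of a day, or all 4 differences between days, were at or beyond 1 (log2) on 1 side. The SD of a difference combines both pairs of arrays. Replicates are technical, so no test was run.

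Brightness was estimated by finding the simplest fraction that gives a deposited value to 9 decimals, averaging the log2 of its numerator and denominator, and taking medians over spots and arrays. Both stayed at or under 10000 for 58.4% to 60.3% of an array's values, and larger ones rank as bright. The steps were tested on simulated data, but the fraction search only on whole numbers well under 10000. The ranks of bright genes, which rest on larger numbers, were not covered by that test. The genes, lists and tests were chosen with earlier results of these data known. All 43 genes were eligible to be named, and of other lists at most the 3 genes past the limit farthest from 0, plus set markers. Values of every array were due for genes past the limit and the 3 farthest means of each role group and day, and are also given for genes the text compares. The alternatives were no centring, a common spread, the median of spots, the closest spot, limits of 1.5-fold and 4-fold, the mean alone, genes on all 4 arrays, the brightest 25%, removal of the brightness trend in 50 bins and each array left out. Centring on all spots was added after the data were examined. Calculations used Python 3.11.15, numpy 2.4.6, pandas 2.3.3 and matplotlib 3.10.9.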

Additional observations from a re-analysis of the deposited data

Results flagged for a closer look

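Of the 35 matrix genes with values on all 4 arrays, Nid2 and Bgn switched sides. They were on one side on both day 3 arrays and on the other on both day 10 arrays. Their differences (day 10 minus day 3) were 0.63 and -0.62. The share of all genes that switch in this way was not counted, so no comparison with the background is made. The difference between the days was not tested, since each day is 1 pair of RNA samples. Nid2 went from -0.47 and -0.62 to 0.11 and 0.07, and its 2 spots were on opposite sides on both day 10 arrays. Bgn went from 0.44 and 0.05 to -0.43 and -0.31, and on the first day 10 array it had 1 of its 2 spots.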

How the results depend on the processing

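With 1 RNA pair per day, no alternative turns a value into a tested difference. At day 3, Timp1 was the 1 gene past 2-fold, and it alone was past it with no centring, a common spread, the median of spots, genes on all 4 arrays, the brightness trend removed and centring on all spots. The count was 3 with the spot of smallest array difference (Col5a1, Col6a1 and Lama1, while Timp1 had a mean of 1.12 with 1 array short of the limit), 5 with the 1.5-fold limit, 0 with the 4-fold limit, 3 with the limit on the mean alone, 0 in the brightest 25% of genes, and 4 to 7 with 1 array left out. At day 10 the count of 0 became 1 with the closest spot (Sparc), 3 at 1.5-fold, 3 with the mean alone, and 6 without replicate 1 and 10 without replicate 2. Between the days the 0 became 1 with the closest spot (Sparc), 4 with the mean alone, and 1 to 5 with 1 array left out.

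The median of the matrix genes at day 3 was -0.14 with the closest spot, -0.19 in the brightest 25% of genes, and between -0.12 and 0.0096 with an array left out. At day 10 it was -0.0299 in the brightest 25% and otherwise between 0.04 and 0.17, and between the days it ran from 0.00 to 0.27. The basement membrane median at day 3 was -0.20 with the closest spot, -0.30 without replicate 2 and -0.31 over the 2 genes in the brightest 25%. The day 10 value ran from -0.09 to 0.16 over the alternatives. The collagen median at day 3 was -0.02 without replicate 1. The cell-associated median between the days was -0.12 with the closest spot. Single genes crossed the limit in 30 cases with an array left out and in 6 otherwise, and Vim at day 10 did so on the negative side without replicate 2 and on the positive side without replicate 1. The share of all genes past the limit moved as well. At day 3 it was 4.57% with the closest spot, 11.8% at 1.5-fold, 0.168% at 4-fold, 7.97% with the mean alone, 4.2% in the brightest 25% and 12.8% to 14.4% with an array left out. At day 10 it was 6.0%, 13.8%, 10.7% and 16.2% to 20.5% for the closest spot, 1.5-fold, the mean alone and an array left out. Between the days it was 5.25% with the closest spot, 16.1% with the mean alone and 10.0% to 15.4% with an array left out. The causes were not tested. No paired analysis was possible because the arrays of a day are technical repeats without numbers in the labels.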
